A study of Mus musculus with 5 samples.

Results

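The Olig1 and Olig2 locus was examined for binding of Olig2 at its own gene, as the 250 kb of mouse chromosome 16 from 91125000 to 91375000 (build mm9) that hold both genes. Every binding event listed inside this window was a member, which gave 79 of the 87107 events on the autosomes and X in 4 lists. ChIP-seq, which sequences the DNA pulled down along with a chromatin-bound factor, had been run on motor neuron progenitors made from Ainv15 mouse embryonic stem cells. All cells received 1 µM retinoic acid and 0.5 µM of the hedgehog agonist SAG on day 2. The native Olig2 list came from day 4 cells carrying an inducible V5-tagged Olig2 and given no doxycycline, with an antibody to the Olig2 protein. The V5 Olig2 list came from day 4 cells of that line given doxycycline at 3 µg/ml, with an antibody to the V5 tag, a short peptide fused to the factor. The V5 Hoxc9 and Flag Hoxc9 lists came from day 5 cells with the same dose of doxycycline and a V5-tagged or a Flag-tagged Hoxc9, each in a line of its own. Each condition had 1 list, drawn from 1 library or, for V5 Hoxc9, from 2 libraries listed together, so no difference between lists has a replicate check. The labels do not say which cells of a culture express a construct, and event lists carry no marker expression against which the cell type could be checked.

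Olig1 and Olig2 are neighbouring genes for basic helix-loop-helix transcription factors, which bind E-boxes, short DNA words of the form CANNTG. In the ventral spinal cord, hedgehog signalling switches on Olig2 in the progenitors of motor neurons, and both factors later act in the oligodendrocyte lineage. Olig2 represses many of its targets, among them genes of neighbouring progenitor domains. Hoxc9, a homeodomain factor, helps to set the thoracic identity of motor neurons. Whether a factor binds around its own gene is a usual question about how its own expression is controlled. In the RefSeq gene order, Gm52261, a long non-coding RNA gene, lies between Olig2 and Olig1. The nearest protein-coding genes on the outer sides are 4932438H23Rik before Olig2 and Ifnar2, a subunit of the type I interferon receptor, after Olig1.

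Olig2 was placed at about 91.226 Mb and Olig1 at about 91.270 Mb, 44 kb apart. These are working positions given to the nearest kilobase. They equal, at that rounding, the starts in a RefSeq table of another build, so distances to the genes are approximate and events were not assigned to exons, introns or UTRs. The RefSeq promoter sequence of Olig2 is shown because the events closest to either gene lay around it. The 250 bases before the transcription start (GRCm38.p6, chr16:91225300-91225549, plus strand) read 5′ to 3′ as follows, with no capitals because none of the searched words occurred.
Olig2: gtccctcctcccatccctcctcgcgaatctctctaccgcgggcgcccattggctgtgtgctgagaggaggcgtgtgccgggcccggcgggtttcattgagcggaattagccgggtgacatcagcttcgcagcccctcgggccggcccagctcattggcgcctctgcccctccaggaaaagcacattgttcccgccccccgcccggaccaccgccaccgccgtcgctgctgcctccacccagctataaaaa

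The E-box CANNTG was found on neither strand of these 250 bases, while 66.2% of the 32851 RefSeq promoters of that length held it (21753). Of its forms, CAGATG was in 14.4% of promoters, CAGCTG in 13.0% and CATATG in 3.46%. The Olig2 promoter had a GC content of 66.8%. The absence says only that these letters are not in this window. The sequence is in another build than the events and cannot be set against their positions. No promoter of Olig1 was analysed here.

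The locus held 27 native Olig2 events, 19 V5 Olig2 events, 10 V5 Hoxc9 events and 23 Flag Hoxc9 events. Among 10235 windows of this length tiled over the autosomes and X, the mean was 1.53 native and 1.08 V5 Olig2 events, so the locus had 17.7 and 17.6 times the mean of each list. Only 1 other window had as many events in the native list, and 1 in the V5 Olig2 list. That was the same window, with 37 native and 25 V5 Olig2 events. No native event was listed in 43.8% of windows and no V5 Olig2 event in 52.6%. The Hoxc9 lists stood out less, with 27 other windows holding at least 10 V5 Hoxc9 events and 106 holding at least 23 Flag Hoxc9 events (0.264% and 1.04% of windows). The window had been drawn around the genes with results of these data known. In windows of 100 kb, of which the middle one keeps only the part from 50 kb on each side of the centre, 38 other windows reached the locus in the native list and 19 in the V5 Olig2 list.

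**Figure D1:**
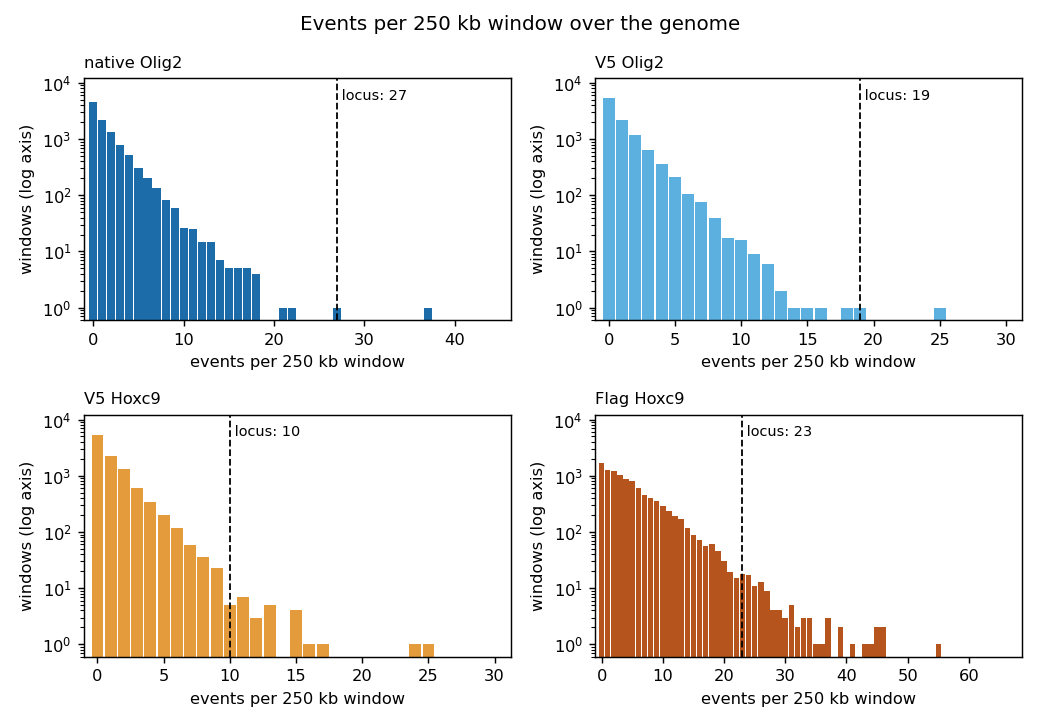
Number of events per 250 kb window (x axis) against the number of windows (y axis, log scale) in each list, with the Olig1 and Olig2 locus as a dashed line. At 27 native and 19 V5 Olig2 events the locus lies near the end of both upper distributions, where only 1 other window is as rich.

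The strongest native event of the locus had 189.0 IP reads, the reads assigned to an event in the immunoprecipitated library, and ranked 360 of 15697. The strongest V5 Olig2 event had 146.3 IP reads and ranked 847 of 11067. A stronger event was listed in 330 other windows of 250 kb (3.22%) for native and in 712 (6.96%) for V5 Olig2. Most events of the locus were of ordinary strength for their list. The native events of the locus had a median of 33.4 IP reads beside 31.5 over the list, and 3 of 27 were in its top 10%. The V5 Olig2 events had a median of 45.2 beside 47.4, with 1 of 19 in the top 10%. Control reads were like those elsewhere, with a median of 1.0 at the locus and 1.0 over the native list, and of 2.9 and 3.1 for V5 Olig2. Ranked by the deposited fold of IP over control reads, with events listed at 0 control reads left out, the best events of the locus were others. They were the native event at 91298107, with 27.2 IP and 0.1 control reads, at rank 67, and the V5 event at 91193607, with 87.8 IP and 1.2 control reads, at rank 525.

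**Figure D2:**
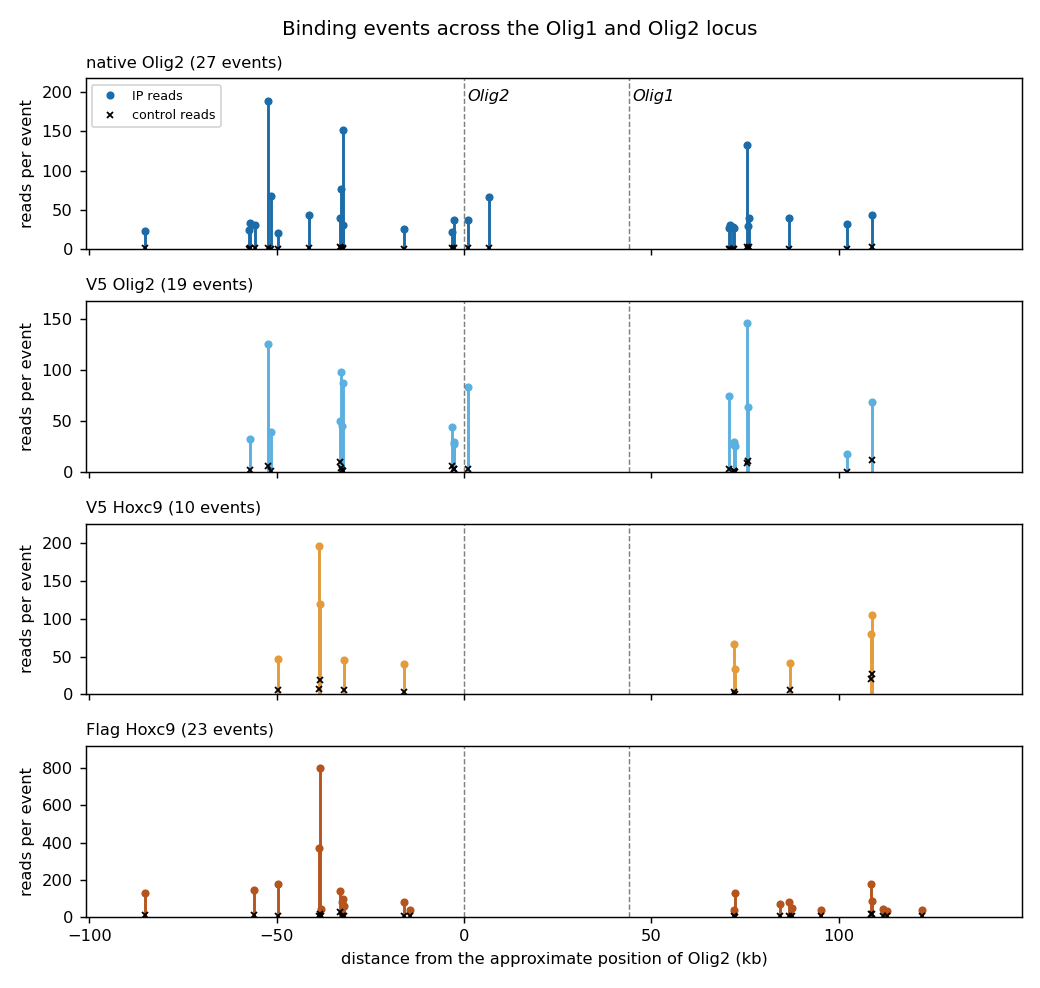
Events of each list across the locus, by distance from the approximate position of Olig2 in kb (x axis) and reads per event (y axis, a separate scale in each panel), with IP reads as stems and control reads as crosses. Olig2 events form groups about 57 to 50 kb and 33 kb before Olig2, at the gene itself and 71 to 76 kb after it, and no list has an event in the 64.2 kb around Olig1.

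At Olig2 itself, both Olig2 lists placed an event about 1 kb after the working position of the gene. The native event at 91227021 had 37.6 IP and 1.0 control reads (fold 36.5), and the V5 event at 91226987 had 83.0 IP and 3.1 control reads (fold 26.7). Their deposited −log10 q values were 5.351 and 11.353. The event was in the middle of the native list, at rank 6196, and higher in the V5 list, at rank 2288. About 3 kb before the gene, native events at 91222909 and 91223364 had 21.8 and 37.2 IP reads. V5 events lay there at 91222905, 91223305 and 91223431, with 44.4, 27.6 and 29.6 IP reads. About 7 kb after the working position, a native event at 91232565 with 67.0 IP reads (rank 2561) had no V5 event nearer than 5578 bp. Neither Hoxc9 list had an event within 10 kb of Olig2, and the nearest were a Flag event 15 kb and a V5 event 16 kb away.

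Olig1, in contrast, lay in a stretch with no event in any list. The last event before it was the native one at 91232565, 37 kb away, and the next after it was the native event at 91296777, 27 kb away. This gap of 64.2 kb was the longest between neighbouring events inside the window, with the second longest at 27.8 kb. Gaps that cross the edges of the window were not counted. They were longer on both sides, from 91069380 to 91140831 and from 91348259 to 91565392. In single lists the gap was 64.2 kb for native Olig2, 69.8 kb for V5 Olig2, 88.2 kb for V5 Hoxc9 and 86.5 kb for Flag Hoxc9. Such gaps stand out only against the dense events of the locus. Over the genome, whole windows of 250 kb held no native event in 43.8% of cases and no V5 Olig2 event in 52.6%. For V5 Hoxc9 and Flag Hoxc9 it was 51.1% and 16.5%. An event too weak for the authors' threshold would not be listed, since the weakest listed −log10 q was 2.019 for native and 2.013 for V5 Olig2.

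The strongest native event of the locus lay about 52 kb before Olig2. At 91173796 it had 189.0 IP and 1.7 control reads (fold 110.1), and its V5 partner 11 bp away, at 91173807, had 126.0 and 5.2 (fold 24.3). A weaker pair lay near it at 91174457 and 91174460, with 68.0 native and 38.8 V5 IP reads. Around them, between 57 and 50 kb before the gene, the native list had further events at 91168679, 91168924, 91170213 and 91176237, all between 21.0 and 33.4 IP reads. Only the second of these had a V5 partner, at 91168912 with 31.8 IP reads. The native list thus had 6 events in this stretch of 7.64 kb and the V5 list 3.

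A compact group of events lay 33 to 32 kb before Olig2, with 13 events of all 4 lists in 1045 bp. The native events at 91193590 and 91193092 had 151.8 and 76.8 IP reads, and ranked 586 and 2100. Their V5 partners at 91193607 and 91193112 had 87.8 and 98.6 IP reads, 17 and 20 bp away. Each Olig2 list added 2 weaker events, at 91192879 and 91193792 in the native list (39.2 and 31.2 IP reads) and at 91192936 and 91193500 in the V5 list (50.4 and 45.2 IP reads). The V5 event at 91192936 had 9.4 control reads and a fold of 5.3, the lowest fold of any Olig2 event at the locus. About 16 kb before the gene, the native list had an event at 91210001 with 26.0 IP reads and no V5 Olig2 event within 200 bp. The native event at 91184721, 41 kb before the gene, had 42.9 IP reads and likewise no V5 event within 200 bp.

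Beyond Olig1, both lists had a group of events 71 to 76 kb after Olig2. Its strongest event was the strongest V5 event of the locus, at 91301496 with 146.3 IP and 8.3 control reads. The native event 15 bp away, at 91301511, had 133.2 IP and 2.8 control reads and ranked 781. The remaining native events there, at 91296777, 91296867, 91297897, 91298107, 91301761 and 91301981, had between 27.2 and 39.2 IP reads. The V5 list had 75.0 IP reads at 91296826 and 63.7 at 91301855, and between 25.1 and 29.1 at 91297904, 91298099 and 91298352. Farther out, weak pairs lay 102 kb from Olig2 (32.0 native and 17.2 V5 IP reads) and 109 kb from it (43.8 native and 69.1 V5 IP reads). Native events without a V5 partner lay at 91312759, with 40.0 IP reads, and at 91140895, with 23.0.

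Nearly every V5 Olig2 event of the locus was near a native one. Of the 19 V5 events, 18 had a native event within 200 bp (94.7%, exact Clopper-Pearson 95% interval 74.0 to 99.9), beside 78.1% of all V5 Olig2 events. Of the 27 native events, 19 had a V5 event (70.4%, 49.8 to 86.2), beside 56.7% of all native events. Both intervals hold the percentage of the whole list, so a difference from it was not detectable with this number of events. These intervals cover counting error only, and neighbouring events are not independent. The V5 event without a native one, at 91298352, had 25.1 IP reads and no control reads, and the nearest native event was 245 bp away. The 16 pairs of mutually nearest events were a median of 16 bp apart and at most 95 bp. The median was 37.2 IP reads at native events with a V5 event and 28.5 at those without, and the strongest of the latter was the event 7 kb after Olig2.

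The ratio of V5 Olig2 to native IP reads varied along the locus, mostly within its spread over the genome. Events within 200 bp were joined into places, and the ratio of V5 to native IP reads was taken at each place of both Olig2 lists. Over all 7959 such places the median ratio was 1.23 (interquartile range 0.9 to 1.67, 5th to 95th percentile 0.571 to 2.53). At the 14 places of the locus it was 1.05. Of these 14 places, 6 lay above the list-wide median, among them all 3 around Olig2. Their ratios were 2.04 and 1.54 about 3 kb before the gene and 2.21 about 1 kb after its working position. Only the last had an exact 95% counting interval (1.47 to 3.3) that did not reach 1.23, and 9.13% of all places had a higher ratio. At 52 kb before the gene the ratios were 0.667 (0.528 to 0.84) and 0.571 (0.377 to 0.863), below the median, and at 32 kb before it 0.727 (0.577 to 0.914).

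The place 33 kb before Olig2 had a ratio of 1.28 (1.0 to 1.65), and those 71 to 76 kb after it lay between 0.926 and 1.29, with intervals that held the median. The place 102 kb after it had the lowest ratio, 0.537 (0.277 to 0.986), on 32.0 native and 17.2 V5 reads. A higher ratio was found at 96.3% of all places. The place 109 kb after Olig2 had 1.58 (1.06 to 2.34), higher than the 1.54 of a place next to the gene. At 57 kb before Olig2 the ratio was 0.952 (0.577 to 1.63), and both of these intervals held the median. Control reads at the place next to Olig2 were 1.0 and 3.1, equal to the medians of the lists. IP reads in the lists were ordered alike across the 14 places (Spearman's rho 0.749, beside 0.74 over all 7959), where all points share the same libraries. The lists differed in doxycycline as well as in antibody, which cannot be told apart here, and sequencing depth is unknown.

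**Figure D3:**
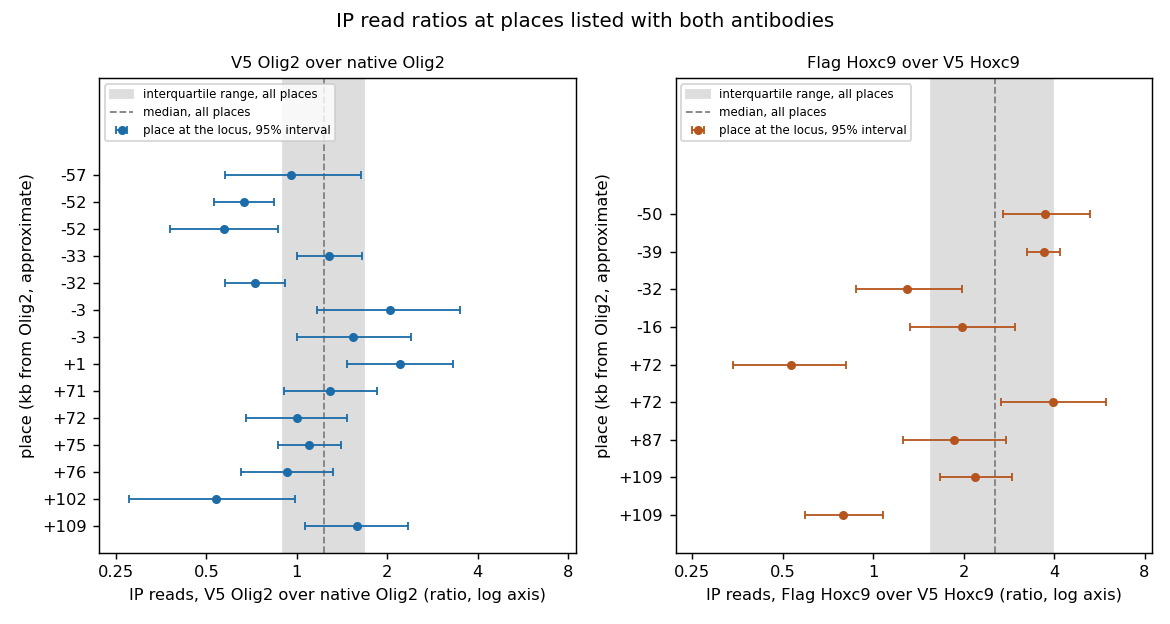
Ratio of IP reads (x axis, log scale) at each place of the locus listed for both Olig2 lists (left) or both Hoxc9 lists (right), by approximate distance from Olig2 in kb (y axis), with exact 95% counting intervals. The dashed line and grey band are the median and the interquartile range over all such places of the genome. The places at -3, +1 and +109 kb are among the 6 above the Olig2 median of 1.23, and those at -52 kb lie below it.

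Hoxc9 bound the locus most strongly where Olig2 was not listed. The strongest Hoxc9 place lay 39 kb before Olig2, with Flag events at 91187489 (799.5 IP and 16.7 control reads, rank 211 of 49278) and 91187383 (370.5 and 2.0). V5 Hoxc9 events lay there at 91187411 (196.8 IP and 7.2 control reads, rank 371 of 11065) and 91187497 (120.2 and 19.3). The nearest native Olig2 event was 2662 bp away from it and the nearest V5 Olig2 event 5439 bp. All 10 V5 Hoxc9 events had a Flag event within 200 bp (100.0%, 69.2 to 100.0), beside 81.8% of the whole list. Of the 23 Flag events, 10 had a V5 Hoxc9 event (43.5%, 23.2 to 65.5), beside 22.4%.

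The other Hoxc9 places were weaker. At 50 kb before Olig2, the Flag event at 91176316 had 176.0 IP reads and the V5 event at 91176274 had 47.0. A native Olig2 event with 21.0 IP reads lay 79 bp from that Flag event. At 109 kb after it, Flag events at 91334656 and 91334878 had 175.2 and 82.8 IP reads with 14.0 and 17.1 control reads. The V5 Hoxc9 events there, at 91334631 and 91334910, had 80.5 and 104.5 IP reads with 20.3 and 26.9 control reads, and folds of 4.0 and 3.9. That place was rich in control reads in both Hoxc9 lists, and the V5 Olig2 event in it had 11.4. Median control reads at the locus were 5.9 for V5 Hoxc9 and 4.2 for Flag Hoxc9, above the list medians of 2.9 and 2.4. A fold of 10 or more was listed for 4 of the 10 V5 Hoxc9 and 17 of the 23 Flag Hoxc9 events, beside 27 of 27 native and 15 of 19 V5 Olig2 events. The share of each whole list at that fold is not given here, and the lists differ in fold throughout. Median folds at the locus were 7.8 for V5 Hoxc9 and 15.3 for Flag Hoxc9, beside 13.1 and 22.1 over the lists. For native and V5 Olig2 they were 44.4 and 24.3, beside 32.0 and 18.3. The part of control reads in the Hoxc9 counts was not tested. Of the 13 Flag events without a V5 Hoxc9 event, the strongest were at 91169907, 91192945 and 91140831, with 145.0, 141.4 and 127.0 IP reads. The event at 91192945 had 24.0 control reads, the most of any Flag event at the locus, and a fold of 5.9. The other 10 had between 33.1 and 94.8 IP reads.

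Flag over V5 Hoxc9 ratios had a median of 1.98 over the 9 places of the locus and 2.54 over 8554 places of the genome. The strongest place had 3.69 (3.26 to 4.19), above the genome's median. The lowest was 0.531 (0.342 to 0.811) at 91298024 to 91298036, where V5 had 66.1 and Flag 35.1 IP reads, and 99.4% of places had a higher ratio. At 91298336 to 91298356, close by, the order was the opposite, with 32.9 V5 and 130.5 Flag reads and no control reads in either list. The lists came from different lines and antibodies.

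Sites of both factors met at several places. Joining events within 200 bp over all lists gave 33 places, of which 23 held Olig2 and 19 held Hoxc9 events. Both factors were listed at 9 places, Olig2 alone at 14 and Hoxc9 alone at 10, and 3 places held all 4 lists. These 3 lay 33 to 32 kb before Olig2, 72 kb after it and 109 kb after it. The shares of these classes among places of the whole genome are not given here, so the counts of places only describe the locus. Of the native Olig2 events, 7 of 27 had a V5 Hoxc9 event (25.9%, 11.1 to 46.3; 12.6% of the whole list) and 11 a Flag Hoxc9 event (40.7%, 22.4 to 61.2; 29.8% of the whole list). For V5 Olig2 events the shares were 21.1% (6.05 to 45.6; whole list 11.6%) and 42.1% (20.3 to 66.5; whole list 27.3%).

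Seen from Hoxc9, 6 of 10 V5 Hoxc9 events had a native Olig2 event (60.0%, 26.2 to 87.8), beside 16.5% of the whole list, and 3 had a V5 Olig2 event (30.0%, 6.67 to 65.2), beside 11.1%. Of the 23 Flag Hoxc9 events, 9 had a native Olig2 event (39.1%, 19.7 to 61.5), beside 10.2%, and 7 a V5 Olig2 event (30.4%, 13.2 to 52.9), beside 6.62%. In 3 of these 4 comparisons the interval lay above the whole list's percentage, the exception being V5 Hoxc9 with V5 Olig2. The intervals count each event as independent, which neighbouring events of the locus are not. They may therefore be too narrow, and do not establish a difference from the whole list. Beside this stands the density of Olig2 events at the locus, more than 17 times the mean of a window in both Olig2 lists. Its part in the sharing was not tested.

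**Figure D4:**
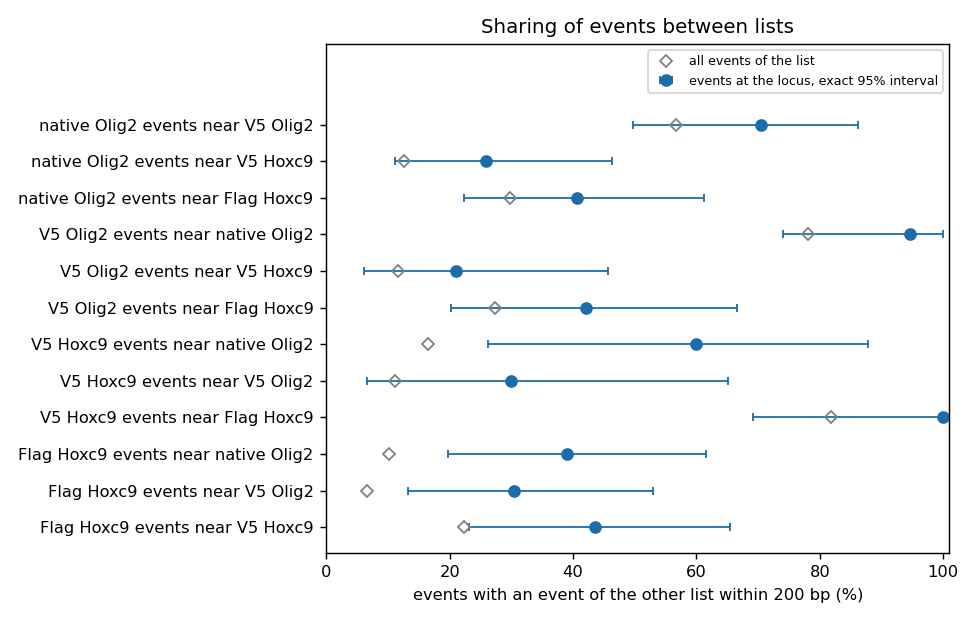
Percentage of events of the first-named list with an event of the other list within 200 bp (x axis), for events at the locus (points with exact 95% intervals) and for all events of the list (open diamonds). Locus points lie to the right of all 12 diamonds, but only for V5 Hoxc9 near native Olig2 and for Flag Hoxc9 near each other list does the interval leave the diamond out. The intervals count neighbouring events as independent, which they are not.

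Events of the locus lay close together. Another event of the same list within 1 kb was found for 17 of 27 native Olig2 events (63.0%), beside 24.1% of the list, and for 14 of 19 V5 Olig2 events (73.7%), beside 23.6%. For V5 Hoxc9 it was 6 of 10 (60.0%, beside 17.9%), and for Flag Hoxc9 13 of 23 (56.5%, beside 40.0%). Stretches separated by gaps of more than 4 kb, a distance chosen after the positions were seen, numbered 13, of which 6 held both Olig2 lists and 8 held both factors. Stretches were not formed over the rest of the genome, so these counts only describe the locus. Distances to the next events outside depend on where the window was drawn, and no genome-wide spacing is given beside them. The nearest events outside the window were 80.1 kb before and 238 kb after it in the native list, with 33.0 and 30.0 IP reads. In the V5 Olig2 list they were 55.6 kb before and 238 kb after it, with 64.0 and 57.0. These distances run from the edge of the window and cannot be set against the gap of 69.8 kb around Olig1, which runs between events. Between events, the V5 Olig2 list was empty from 91069380, before the window, to 91168912 inside it. That is longer than its gap around Olig1. In the V5 Hoxc9 list the nearest events outside were 468 and 385 kb away, and in the Flag Hoxc9 list 222 and 190 kb.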

How the data were processed

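Reads were aligned with Bowtie 0.12.5 to mm9, per the submitters' processing notes. Events are named GPS_PEAK in the deposited interval lists, with settings and control library not given in the sources used here. The deposited tables give, per the file headers, an estimated count of IP reads and of control reads for each event, their fold ratio (9999.9 or another very high value where control reads are listed at 0.0), and −log10 of p and q. The deposited tables also hold a pair of score columns, which played no part here. All of these are the authors' values. Ranks ran within a list, since library totals were not used and depth is unknown. Positions are as deposited in the event tables, and equal the starts in the interval lists, so counting from 0 or from 1 could shift them by 1 bp. The 22 events on other contigs and the mock ChIP were not analysed here.

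Events within 200 bp were called shared. Ratio intervals are exact binomial 95% intervals on IP reads rounded to whole reads, and cover counting error only. No test between conditions was possible with 1 list each. All listed events of the window are reported by rule. Windows were tiled in step with the locus between the outermost events of each chromosome. Motifs were searched on both strands. Each is its own reverse complement except CAGATG, and the fully spelled forms are all cases of CANNTG. The patterning genes planned for comparison needed mm9 coordinates and were not analysed here. The matching was tested on simulated positions. The members, the window and the lists were chosen with earlier results of these data known. The software was Python 3.11.15 with SciPy 1.17.1, pandas 2.3.3 and numpy 2.4.6, and matplotlib 3.10.9 for the figures.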

Additional observations from a re-analysis of the deposited data

How the results depend on the processing

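Of 44 alternatives to 14 values, 30 moved a value by less than 1.5 times, or left a share inside its counting interval, and 14 did not. A fold of 10 or more left 4 V5 Hoxc9 events. Sharing within 500 or 1000 bp gave 100% of V5 Olig2 events with a native event. Ranked by fold among events with control reads above 0, the best ranks were 67 for native Olig2, 525 for V5 Olig2, 1020 for V5 Hoxc9 and 1669 in the Flag Hoxc9 list. Among windows of 100 kb, which hold only the middle of the locus, 38, 19, 939 and 4828 others had at least as many events, in the same order. With windows tiled from the middle of the locus, 0 reached the V5 Olig2 count, and with events within 200 bp chained, 3 others did, while 68 reached the Flag Hoxc9 count. The cause was not tested. No paired analysis was possible because each condition had 1 list. With 1 list each, no replicate could be left out, and unknown depth limits what an unlisted event means.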

Other observations

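The 250 kb windows most like the locus were sought over the number of events and the highest IP reads in all 4 lists, by Euclidean distance on a log2 scale. The nearest, on chromosome 8 from 122875000 to 123125000, held 37 native and 25 V5 Olig2 events, and 13 V5 and 46 Flag Hoxc9 events. It was the window with more Olig2 events than the locus, and its highest native event had 149.5 IP reads, below the 189.0 of the locus. The next was on chromosome 9 from 61125000 to 61375000, with 17 native and 10 V5 Olig2 events, followed by chromosome 1 from 179375000 to 179625000, with 13 and 14. Gene names were not assigned to these windows, since no mm9 annotation was used.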
